A study of Homo sapiens with 18 samples.

Results

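The 48 genes described here are the measured members of 6 families that control which exons are joined in a messenger RNA. They were taken by gene symbol from the 23106 genes counted, and comprise 12 SRSF genes, 24 HNRNP genes, the 4 kinases CLK1 to CLK4, the 3 kinases SRPK1 to SRPK3, TRA2A and TRA2B, and MBNL1 to MBNL3. HNRPDL and HNRPLL, which the files list under their older symbols, did not match the symbols used and were left out.

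SR proteins, which the SRSF genes encode, bind exonic enhancers in pre-mRNA and recruit the spliceosome, and TRA2A and TRA2B are related proteins with arginine-serine repeats that also promote exon inclusion. CLK and SRPK kinases phosphorylate those repeats and so govern where SR proteins are in the cell and how they act. The hnRNP proteins coat nascent RNA and often oppose SR proteins at splice sites, and the muscleblind-like MBNL proteins regulate alternative splicing and RNA localisation during differentiation.

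PolyA+ RNA was sequenced from 3 established human cell lines, each in normoxia and after a hypoxic incubation, with 3 replicates in each of the 6 groups and 18 samples in all. HKC-8 cells are a kidney proximal tubule line, RCC4 cells are a renal cancer line that here carries a stably transfected wild-type VHL gene in both oxygen conditions, and HepG2 cells are a hepatocellular cancer line. By the labels, hypoxic HKC-8 and HepG2 cells had 0.5% oxygen for 16 h and hypoxic RCC4 cells 1.0% for 24 h. The titles of hypoxic HKC-8 samples give 0.1% instead, and the study's text gives 0.5% for 16 h in each line, so the RCC4 response is set beside the others without a test of the difference.

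The total count was 40915980 to 97984260 per sample and was highest in HKC-8 cells, whose libraries were each split over 2 sequencing lanes. A gene at 3 counts stood at 0.0306 to 0.0733 CPM (counts scaled to a common library size), a limit that covers counting error only. All 10 liver markers reached 1 CPM in every HepG2 sample. Of 10 renal tubule markers, 5 did so throughout the RCC4 samples, but only 3 throughout the HKC-8 samples. HepG2 samples also had 3, so this count does not separate them from HKC-8 cells. The tubule genes PAX2, LHX1, CUBN, LRP2, AQP1, SLC34A1 and SLC22A6 stayed below 1 CPM in every HKC-8 sample and every HepG2 sample. The summed level of the 10 tubule markers was 156 to 200 CPM in HKC-8 samples, above the 17.3 to 34.6 CPM of HepG2 samples. Of 8 mesenchymal markers, 6 reached 1 CPM in all samples of each renal line, and HepG2 samples had 5. All tested members of a list of hypoxia-induced genes were higher in hypoxia, 10 of 10 in HKC-8 cells, 8 of 8 in RCC4 cells and 10 of 10 in HepG2 cells, and the log2 fold change of NDRG1, a HIF target, was 4.72, 3.74 and 3.56 in that order.

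In HKC-8 cells 10 of the 44 members with enough counts to be tested were lower in hypoxia and 1 was higher at an adjusted p under 0.05, against 9.12% of 13536 tested genes lower and 11.2% higher. The median log2 fold change of the members was -0.17 and that of all tested genes 0.00, and 35 of the 44 members had a value below 0. In 23 members every hypoxic sample lay below every normoxic sample, a pattern found in 19.1% of all tested genes, and in 2 every hypoxic sample lay above, as in 20.0% of genes. The 10 lower members were the SR protein genes SRSF1, SRSF2, SRSF3, SRSF4 and SRSF7, then TRA2B, HNRNPAB, HNRNPC, HNRNPH3 and MBNL1, and the higher one was CLK3.

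The HKC-8 counts depended on the fit and on single samples. DESeq2 called 14 members lower and 2 higher, and 1 fit of all 18 samples called 22 lower and 3 higher. The shares of all genes called under these other settings are not given here. A change in count therefore cannot be read as particular to the members. HNRNPAB and MBNL1 lost their calls with a filter of at least 10 counts in every sample, HNRNPH3 and SRSF4 with no filter, and SRSF4 with total count scaling. Leaving out normoxic replicate 1, edgeR called 0 members lower (14 at an unadjusted p under 0.05), without hypoxic replicate 1 it called 1, without normoxic replicate 2 and without hypoxic replicate 3 it called 3 each, and without normoxic replicate 3 it called 15. The median of the members stayed between -0.19 and -0.14 over the 6 omissions, and CLK3 was called higher in each of them. Without hypoxic replicate 2, 4 members were called higher.

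In RCC4 cells 10 members were higher and 13 lower of 43 tested, against 25.9% of 12811 tested genes higher and 24.2% lower, with a median of -0.01. In HepG2 cells 7 were higher and 9 lower of 42 tested, against 19.9% and 19.2% of 13623 tested genes, with a median of 0.01. The groups did not overlap in 14 members higher and 13 lower in RCC4 cells (28.8% and 27.6% of genes), and in 10 higher and 13 lower in HepG2 cells (24.8% and 25.2%). The counts moved with the scaling and the fit. By total counts alone, in place of the trimmed mean of M-values (TMM), 8 were higher and 22 lower in RCC4 cells, and 3 were higher and 13 lower in HepG2 cells, where HNRNPA1, HNRNPU, HNRNPUL1 and SRSF9 lost their calls. In 1 fit of all 18 samples 4 were higher and 5 lower in RCC4 cells. The 14 RCC4 calls lost in that fit were those of SRSF1, SRSF2, SRSF3, SRSF7, SRSF8, SRSF9, SRSF12, HNRNPA3, HNRNPD, HNRNPH2, HNRNPUL2, MBNL1, SRPK1 and SRPK2, and in HepG2 cells HNRNPU and SRSF9 lost theirs. With total counts, values below 0 numbered 32 of 43 in RCC4 and 29 of 42 in HepG2 cells, compared with 22 and 19 by TMM. Total counts also shifted the median of all tested genes, by -0.083 in RCC4 and -0.093 in HepG2 cells. Shares of all genes called under these settings are not given here. In HepG2 cells, 5 members were lower without normoxic replicate 1 or without hypoxic replicate 1. The summed level of all 48 members was 15229 ± 742 CPM in normoxic and 13069 ± 216 CPM in hypoxic HKC-8 cells (SD, n = 3), with no overlap between the groups. It was 9221 ± 99.7 and 9039 ± 128 CPM in normoxic and hypoxic RCC4 cells, and 10690 ± 494 and 10608 ± 112 CPM in HepG2 cells. The labels do not say that replicates came from separate cultures, so the p-values measure only the spread between these samples. Because whole cultures were sequenced, fewer cells making a transcript and less of it per cell cannot be told apart.

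**Figure D1:**
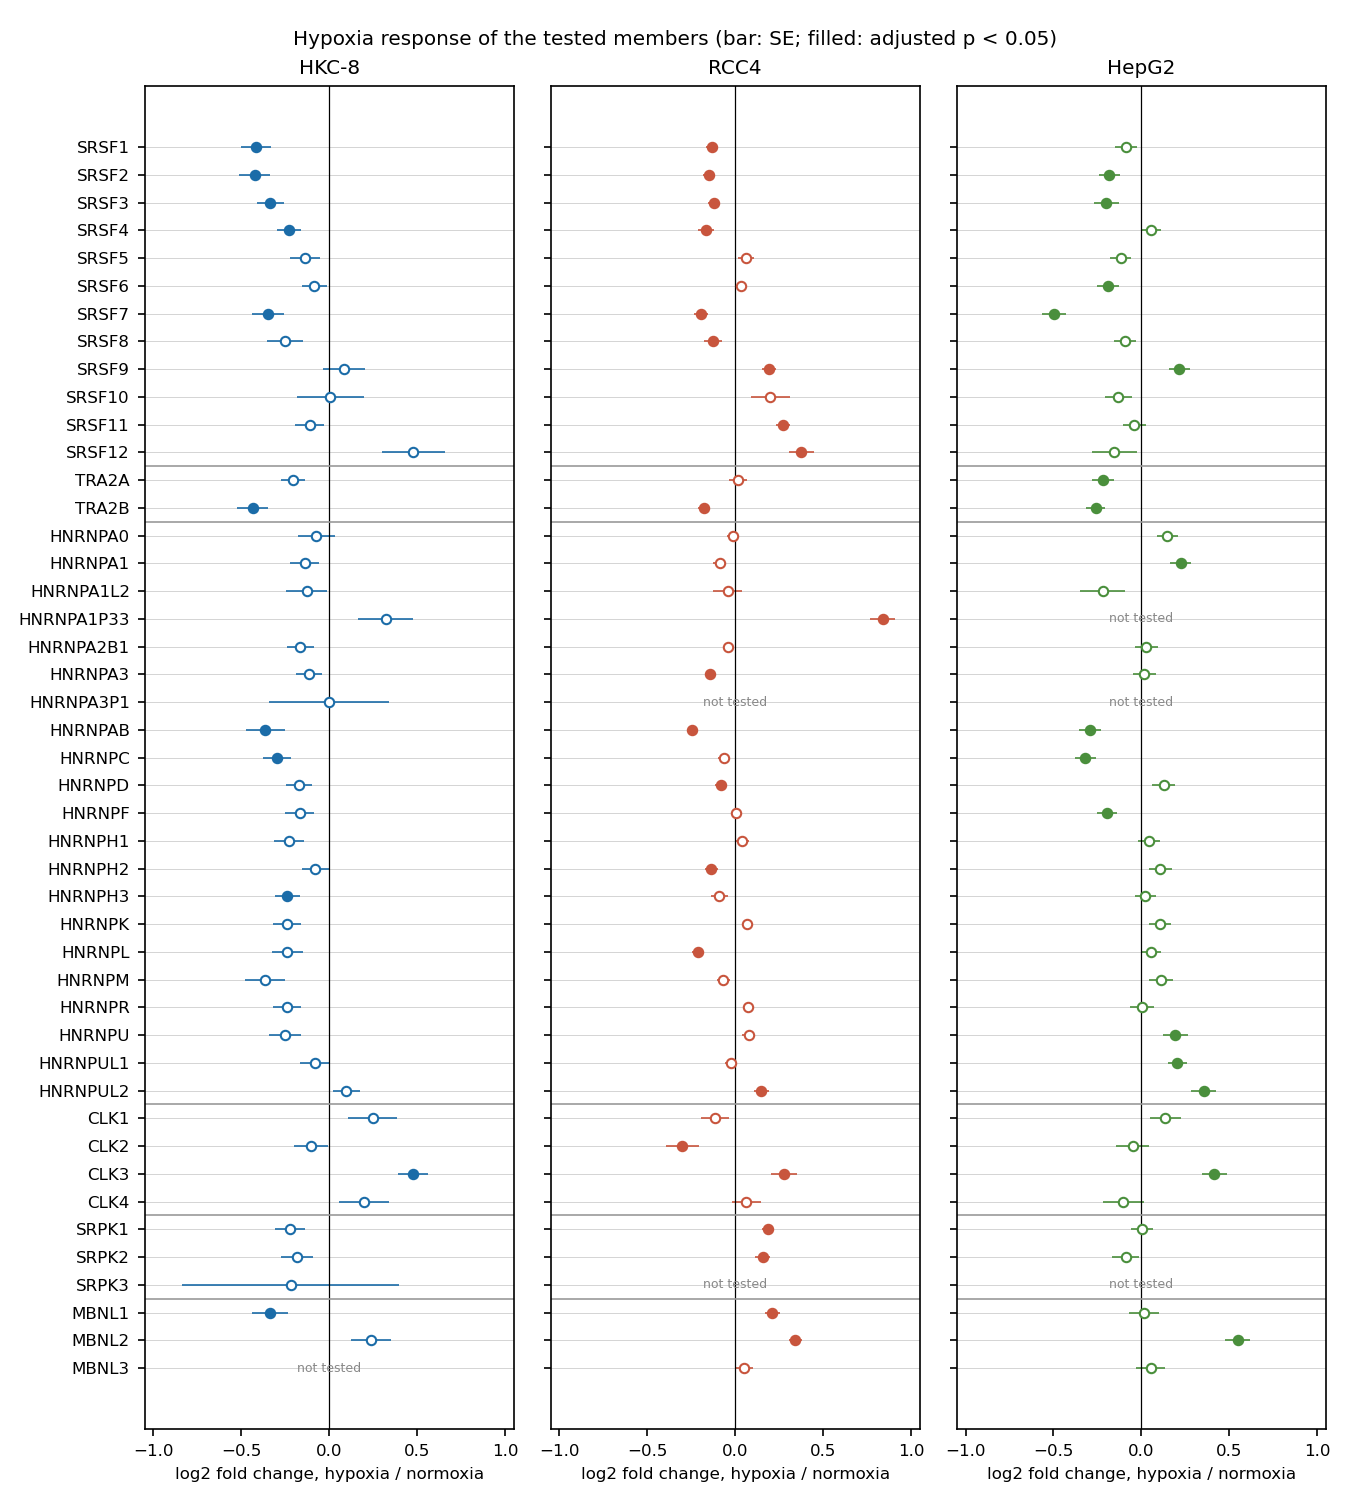
Log2 fold change (hypoxia over normoxia, horizontal axis) of each tested member, 1 panel per cell line, with the SE as a bar and a filled point at an adjusted p under 0.05. In the HKC-8 panel 35 of 44 points lie left of 0, in the RCC4 panel 22 of 43 and in the HepG2 panel 19 of 42.

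Of the 41 members tested in all 3 lines, 6 passed the threshold in the same direction in each. CLK3 was higher, where 3.81% of the 11418 genes tested in all 3 lines were, and SRSF2, SRSF3, SRSF7, TRA2B and HNRNPAB were lower, where 3.43% were. In either direction, 7 other members (17.1%) passed in 2 lines, 17 (41.5%) in 1 line and 11 (26.8%) in none, beside 24.6%, 38.5% and 28.6% of those genes.

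CLK3, a dual-specificity kinase that phosphorylates SR proteins, lies at chr15:74890841-74937755 on the plus strand of GRCh37. Its level was 37.3, 38.2 and 34.3 CPM in the 3 normoxic HKC-8 samples and 54.6, 49.1 and 49.0 CPM in the hypoxic ones. In RCC4 cells it was 16.1, 15.4 and 13.2 CPM in normoxia and 18.4, 17.6 and 18.1 CPM in hypoxia. HepG2 cells had 28.8, 30.3 and 29.1 CPM and 40.1, 37.3 and 40.3 CPM. In each line all 3 hypoxic samples were above all 3 normoxic ones. The log2 fold changes were 0.48 ± 0.09 (adjusted p = 0.00631) in HKC-8 cells, 0.28 ± 0.07 (adjusted p = 0.00334) in RCC4 cells and 0.42 ± 0.07 (adjusted p = 0.000391) in HepG2 cells. CLK3 stayed past the threshold in each line under each of 13 alternative settings, with an adjusted p of 4.32e-05 to 0.0381, 0.000743 to 0.0334 and 1.96e-06 to 0.00341. EDC3, which overlaps CLK3 on the opposite strand, had log2 fold changes of -0.22 ± 0.09 (adjusted p = 0.106), -0.02 ± 0.06 (adjusted p = 0.853) and -0.04 ± 0.06 (adjusted p = 0.643).

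TRA2B, at chr3:185632346-185655891 on the minus strand, was at 362, 371 and 327 CPM in normoxic and 267, 278 and 238 CPM in hypoxic HKC-8 cells. RCC4 samples held 255, 254 and 252 CPM in normoxia and 218, 231 and 219 CPM in hypoxia, and HepG2 samples 248, 251 and 246 CPM and 205, 212 and 206 CPM. The 2 conditions did not overlap in any line. Its log2 fold changes were -0.43 ± 0.09 (adjusted p = 0.0110), -0.18 ± 0.03 (adjusted p = 0.000126) and -0.26 ± 0.05 (adjusted p = 0.00224), and without HKC-8 normoxic replicate 1 the HKC-8 value was -0.42 with an adjusted p of 0.0561.

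SRSF7, which encodes an SR protein with a zinc knuckle, lies at chr2:38970741-38978636 on the minus strand. It was at 231, 248 and 206 CPM in normoxic and 179.8, 191 and 167 CPM in hypoxic HKC-8 cells, and at 133, 136 and 134 CPM and 112, 121 and 118 CPM in RCC4 cells. HepG2 cells had 187, 195 and 167 CPM in normoxia and 133, 132 and 125 CPM in hypoxia, the largest fall of any member there. No hypoxic sample reached the lowest normoxic one in any line. The log2 fold changes were -0.35 ± 0.09 (adjusted p = 0.0298), -0.19 ± 0.04 (adjusted p = 0.000182) and -0.49 ± 0.07 (adjusted p = 8.65e-05).

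SRSF2, an SR protein gene at chr17:74730197-74733415 on the minus strand, was at 358, 365 and 316 CPM in normoxic and 242, 273 and 257 CPM in hypoxic HKC-8 cells, with log2 fold changes of -0.42 ± 0.09 (adjusted p = 0.0114) there, -0.15 ± 0.04 (adjusted p = 0.00137) in RCC4 and -0.18 ± 0.06 (adjusted p = 0.0250) in HepG2 cells. MFSD11, which overlaps it on the opposite strand, had log2 fold changes of 0.04 ± 0.15, -0.36 ± 0.07 and -0.17 ± 0.07. SRSF3, which encodes a short SR protein, lies at chr6:36562130-36573377 on the plus strand and had 562, 557 and 513 CPM in normoxic and 432, 447 and 413 CPM in hypoxic HKC-8 cells. Its log2 fold changes were -0.33 ± 0.08 (adjusted p = 0.0183), -0.12 ± 0.03 (adjusted p = 0.00330) and -0.20 ± 0.07 (adjusted p = 0.0400).

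HNRNPAB, at chr5:177631534-177638164 on the plus strand, encodes an hnRNP that binds single-stranded nucleic acids. HKC-8 cells had 432, 476 and 374 CPM in normoxia and 323, 370.4 and 301 CPM in hypoxia, and the groups did not overlap. The separation was wider in RCC4 cells, at 307, 310.0 and 297 CPM and 257, 258 and 254 CPM, and HepG2 cells had 211, 202 and 230.3 CPM and 167, 179 and 179.9 CPM. Its log2 fold changes were -0.36 ± 0.11 (adjusted p = 0.0490), -0.24 ± 0.03 (adjusted p = 1.39e-06) and -0.29 ± 0.06 (adjusted p = 0.00259).

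Among these 5 lower members, the HKC-8 calls of SRSF3, SRSF7 and HNRNPAB were lost without normoxic replicate 1 or 2 or hypoxic replicate 1 or 3, and that of SRSF2 without normoxic or hypoxic replicate 1. The values then lay from -0.38 to -0.31 for SRSF3, -0.42 to -0.28 for SRSF7, -0.45 to -0.28 for HNRNPAB and -0.49 to -0.38 for SRSF2 over the 6 omissions. In HepG2 cells SRSF2 lost its call in 4 of 6 omissions (-0.22 to -0.16) and SRSF3 in 5 (-0.27 to -0.13), the exceptions being normoxic replicate 3 for both and hypoxic replicate 2 for SRSF2. No RCC4 call among the 5 was lost when a sample was left out, but in the fit of all 18 samples the RCC4 adjusted p was 0.0893 for SRSF2, 0.156 for SRSF3 and 0.0547 for SRSF7.

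**Figure D2:**
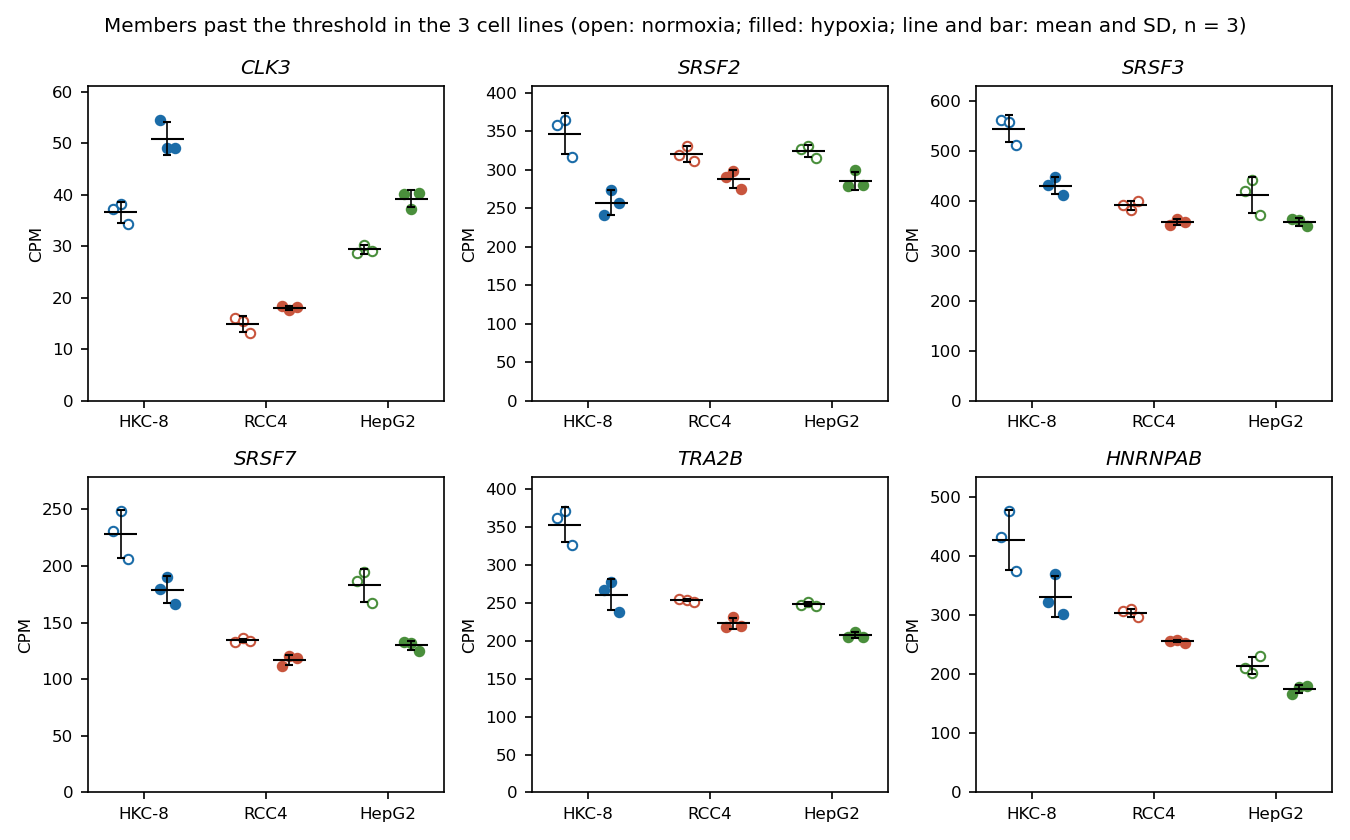
CPM (vertical axis, from 0) of the 6 members past the threshold in each line, by sample, with open points for normoxia, filled points for hypoxia, and the mean and SD of 3 samples. CLK3 rises and the other 5 fall, with the groups apart in every line.

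Promoters are shown for 1 of the members that was higher in each line and 2 of those that were lower. Bases in capitals are matches to ACGTG or GCGTG on either strand, the letters at the core of hypoxia response elements, where HIF binds. A CACGTG site counts on both strands. The sequences are the 250 bases before the annotated start in RefSeq (GRCh38.p14), read in the direction of the gene, for CLK3 at chr15:74608122-74608371 (plus strand), SRSF3 at chr6:36594112-36594361 (plus strand) and TRA2B at chr3:185938015-185938264 (minus strand).
CLK3: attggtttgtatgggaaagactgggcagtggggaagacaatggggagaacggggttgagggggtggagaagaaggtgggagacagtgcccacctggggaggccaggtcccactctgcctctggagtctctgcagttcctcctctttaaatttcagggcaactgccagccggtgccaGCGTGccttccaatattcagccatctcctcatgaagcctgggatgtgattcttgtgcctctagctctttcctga
SRSF3: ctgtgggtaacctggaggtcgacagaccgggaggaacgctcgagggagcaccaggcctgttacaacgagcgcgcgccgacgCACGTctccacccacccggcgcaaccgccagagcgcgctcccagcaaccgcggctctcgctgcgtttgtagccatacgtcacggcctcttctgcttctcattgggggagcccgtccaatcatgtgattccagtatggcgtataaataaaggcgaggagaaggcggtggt
TRA2B: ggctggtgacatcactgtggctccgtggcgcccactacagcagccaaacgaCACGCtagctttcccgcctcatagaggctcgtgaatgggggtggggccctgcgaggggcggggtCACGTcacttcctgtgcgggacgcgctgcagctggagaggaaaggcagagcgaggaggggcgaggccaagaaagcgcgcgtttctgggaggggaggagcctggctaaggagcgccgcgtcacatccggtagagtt

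The CLK3, SRSF3 and SRSF7 promoters held 1 match each, that of TRA2B 2 and that of HNRNPAB 0 in these 250 bases, so rising and falling members both had matches. Of the 41 members with an entry, 31 (75.6%) held at least 1 match, compared with 15172 of all 35116 promoters (43.2%). Among genes tested in all 3 lines the shares were 30 of 38 members (78.9%) and 5010 of 8504 genes (58.9%). Such a match does not show that HIF binds there, and binding was not tested. SRSF2, HNRNPA1 and TRA2A were among the 7 members without an entry.

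The other SR protein genes passed in 2 lines at most. SRSF1, which encodes the archetypal SR protein SF2/ASF, was at 842, 824 and 729 CPM in normoxic and 578, 605 and 607 CPM in hypoxic HKC-8 cells, with no overlap. Its log2 fold change was -0.42 ± 0.08 (adjusted p = 0.0104) in HKC-8 and -0.13 ± 0.03 (adjusted p = 0.00204) in RCC4 cells, and -0.09 ± 0.06 (adjusted p = 0.302) in HepG2 cells. Without HKC-8 normoxic or hypoxic replicate 1 its HKC-8 adjusted p was 0.0595 or 0.0576. SRSF4 was lower in the same pair of lines, by -0.23 and -0.17 on the log2 scale, and its HKC-8 call was lost in each of the 6 omissions (-0.26 to -0.20).

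SRSF9, whose protein can activate or repress exons, was higher in RCC4 (0.19 ± 0.04, adjusted p = 0.000421) and HepG2 cells (0.22 ± 0.06, adjusted p = 0.0108). It stood at 84.3, 88.8 and 90.2 CPM in normoxic and 102, 98.0 and 99.2 CPM in hypoxic RCC4 samples, which did not overlap, and its HepG2 value was 0.19 with an adjusted p of 0.0696 without hypoxic replicate 1. In HKC-8 cells its value was 0.08 ± 0.12. GATC, which overlaps SRSF9, had -0.11 ± 0.04 in RCC4 and -0.33 ± 0.06 in HepG2 cells.

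SRSF11 and SRSF12 were higher in RCC4 cells, by 0.27 ± 0.04 (adjusted p = 7.84e-06) and 0.38 ± 0.07 (adjusted p = 0.000149). SRSF12 was a low-level member, at 14.0, 12.4 and 12.5 CPM in normoxic and 17.1, 16.6 and 16.7 CPM in hypoxic RCC4 cells. Its HKC-8 value was 0.48 ± 0.18 (adjusted p = 0.0902), with normoxic samples at 5.20, 5.31 and 5.16 CPM and hypoxic ones at 6.49, 5.97 and 9.33 CPM, the last far above the others. SRSF8 was lower in RCC4 cells (-0.13 ± 0.05, adjusted p = 0.0420), a call lost in 4 of 6 omissions (normoxic replicates 2 and 3 and hypoxic replicates 1 and 3, -0.17 to -0.09).

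SRSF6 (-0.19 ± 0.06, adjusted p = 0.0333) and TRA2A (-0.22 ± 0.06, adjusted p = 0.0124) were lower in HepG2 cells. TRA2A stood at 65.1, 64.6 and 60.1 CPM in normoxic and 54.5, 54.5 and 54.2 CPM in hypoxic HepG2 samples, so both TRA2 genes were lower in that line. Without normoxic replicate 1 its adjusted p was 0.0523, and SRSF6 lost its call without normoxic replicate 1 or 2 or hypoxic replicate 1 or 3 (-0.24 to -0.14). SRSF5 and SRSF10 passed the threshold in no line.

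Of the hnRNP genes, 7 of 20 passed in RCC4, 7 of 19 in HepG2 and 3 of 21 in HKC-8 cells, beside 9 of 12, 5 of 12 and 5 of 12 SRSF genes. The shares of all tested genes that passed in either direction were 50.1%, 39.1% and 20.4% in the same order. Their median log2 fold change was -0.17 in HKC-8 cells, -0.04 in RCC4 cells and 0.05 in HepG2 cells. Of the 21 in HKC-8 cells, 19 had a value below 0. The HepG2 median is smaller than the shift of -0.09 that total count scaling gave the median of all tested genes in that line.

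HNRNPC, whose protein binds uridine tracts and guards against inclusion of Alu exons, was at 1090, 1118 and 1032 CPM in normoxic and 869, 911 and 852 CPM in hypoxic HKC-8 cells (-0.30 ± 0.08, adjusted p = 0.0284). HepG2 cells had 984, 932 and 918 CPM and 750.3, 746 and 777 CPM (-0.32 ± 0.06, adjusted p = 0.000870). Both lines were without overlap, and the RCC4 value was -0.06 ± 0.03 (adjusted p = 0.122). HNRNPH3 was lower in HKC-8 cells (-0.24 ± 0.07, adjusted p = 0.0467), a call lost in 5 of 6 omissions (-0.26 to -0.21), the exception being normoxic replicate 3, and that of HNRNPC was lost in 4 of 6 (-0.33 to -0.27), the exceptions being normoxic replicate 3 and hypoxic replicate 2.

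In RCC4 cells HNRNPAB, HNRNPL (-0.21 ± 0.03, adjusted p = 1.12e-05), HNRNPA3 (-0.14 ± 0.03, adjusted p = 0.000985), HNRNPH2 (-0.14 ± 0.04, adjusted p = 0.00337) and HNRNPD (-0.08 ± 0.03, adjusted p = 0.0496) were lower. HNRNPL binds CA repeats, and its RCC4 samples ran from 296, 297 and 290.1 CPM in normoxia to 249, 261 and 249 CPM in hypoxia. HNRNPD lost its call without normoxic replicate 1 or 2 or hypoxic replicate 2 or 3 (-0.10 to -0.07).

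HNRNPUL2 was higher in RCC4 (0.15 ± 0.04, adjusted p = 0.00659) and HepG2 cells (0.35 ± 0.07, adjusted p = 0.00183), where it went from 115, 96.0 and 116 CPM to 135, 136 and 147 CPM. Without RCC4 hypoxic replicate 1 its RCC4 value was 0.08 with an adjusted p of 0.0823. HepG2 cells also had higher HNRNPA1 (0.22 ± 0.06, adjusted p = 0.00999), HNRNPUL1 (0.20 ± 0.05, adjusted p = 0.0100) and HNRNPU (0.19 ± 0.07, adjusted p = 0.0450), and lower HNRNPF (-0.20 ± 0.06, adjusted p = 0.0170). HNRNPA1 lost its call without hypoxic replicate 2 (0.18 to 0.25), HNRNPF without hypoxic replicate 1 or 2 (-0.22 to -0.16), and HNRNPU in 5 of 6 omissions, the exception being normoxic replicate 3 (0.13 to 0.24).

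In RCC4 cells the kinases CLK2, SRPK1 and SRPK2 passed besides CLK3, and CLK1 and CLK4 did not. There 50.1% of all tested genes passed in either direction. No kinase other than CLK3 passed in the main fits of HKC-8 or HepG2 cells. CLK2 was lower in RCC4 cells, at 9.66, 10.9 and 9.97 CPM in normoxia and 7.90, 9.09 and 7.70 CPM in hypoxia (-0.30 ± 0.10, adjusted p = 0.0112), and its adjusted p was 0.0678 without normoxic replicate 2 and 0.0546 without hypoxic replicate 3. Thus CLK2 and CLK3 moved in opposite directions in that line. CLK1, which autoregulates its own splicing, had 0.25 ± 0.14 in HKC-8 cells, -0.11 ± 0.08 in RCC4 cells and 0.14 ± 0.09 in HepG2 cells. Hypoxic HKC-8 samples spread widely for CLK1, at 72.2, 48.4 and 62.3 CPM, and without hypoxic replicate 2, the lowest, its value was 0.39 with an adjusted p of 0.0300. CLK4 had 0.20 ± 0.14, 0.06 ± 0.08 and -0.10 ± 0.12.

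SRPK1 and SRPK2, the cytoplasmic kinases that drive SR proteins into the nucleus, were higher in RCC4 cells. SRPK1 stood at 190.3, 184 and 187 CPM in normoxia and 209, 211 and 216 CPM in hypoxia (0.18 ± 0.03, adjusted p = 8.53e-05), and SRPK2 at 83.6, 80.6 and 75.9 CPM and 87.7, 89.2 and 89.5 CPM (0.16 ± 0.04, adjusted p = 0.00355). Neither pair of groups overlapped. In the fit of all 18 samples the adjusted p was 0.0581 for SRPK1 and 0.172 for SRPK2, and with total count scaling it was 0.159 for SRPK2. In HKC-8 cells the values were -0.22 ± 0.09 (adjusted p = 0.0945) for SRPK1 and -0.18 ± 0.09 (adjusted p = 0.190) for SRPK2, and in HepG2 cells 0.00 ± 0.06 (adjusted p = 0.975) and -0.09 ± 0.08 (adjusted p = 0.370).

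MBNL1 and MBNL2 are close paralogs. MBNL1 stood at 335, 369.7 and 312 CPM in normoxic and 235, 283 and 285 CPM in hypoxic HKC-8 cells, and at 155, 143 and 134 CPM and 169, 161 and 168 CPM in RCC4 cells. It was lower in HKC-8 (-0.34 ± 0.10, adjusted p = 0.0473) and higher in RCC4 cells (0.21 ± 0.04, adjusted p = 0.000258), the single member past the threshold in both directions, and in HepG2 cells it had 0.02 ± 0.09 (adjusted p = 0.905). The HKC-8 call was lost without normoxic replicate 1 or 2 or hypoxic replicate 1 or 3 (-0.40 to -0.25), and the RCC4 call in the fit of all 18 samples (0.21, adjusted p = 0.128).

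MBNL2 stood at 129, 124 and 127 CPM in normoxic and 157, 156 and 165 CPM in hypoxic RCC4 cells (0.34 ± 0.04, adjusted p = 5.24e-08). HepG2 cells had 59.2, 52.0 and 62.8 CPM and 87.1, 81.6 and 85.6 CPM (0.55 ± 0.07, adjusted p = 4.46e-05), the largest rise of any member there, again without overlap. In HKC-8 cells the conditions overlapped, at 96.1, 88.0 and 107 CPM and 123, 96.8 and 123 CPM (0.24 ± 0.11, adjusted p = 0.163). Without hypoxic replicate 2 the HKC-8 value was 0.35 with an adjusted p of 0.0322. MBNL3 was tested in RCC4 (0.05 ± 0.05, adjusted p = 0.456) and HepG2 cells (0.05 ± 0.08, adjusted p = 0.646).

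HKC-8 and HepG2 cells share the labelled oxygen level and duration, although by their titles the oxygen level was 0.1% in HKC-8 and 0.5% in HepG2 samples. An interaction over 12 samples tested whether they responded alike. HNRNPA1, HNRNPK, HNRNPU and SRSF4 responded differently, 4 of 45 members, each with the lower log2 fold change in HKC-8 cells, where 5.02% of 15046 tested genes passed in that direction. With edgeR 0 members passed in the other direction, where 4.28% of genes did, with 1 at an unadjusted p under 0.05 and 0 by DESeq2. By DESeq2, 11 members passed in the first direction, and the share of all genes that did so is not given here.

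HNRNPU, which encodes a nuclear scaffold protein, was at 1081, 1112 and 928 CPM in normoxic and 855, 878 and 883 CPM in hypoxic HKC-8 cells, and at 659, 565 and 679 CPM and 702, 717 and 757 CPM in HepG2 cells. It thus stood lower in hypoxia in one line and higher in the other, without overlap in either. The difference was -0.45 ± 0.12 (adjusted p = 0.0311), though within HKC-8 cells the fall of HNRNPU did not pass (adjusted p = 0.0783). HNRNPA1, a splicing repressor, had 209, 185 and 203 CPM in normoxic and 231, 239 and 226 CPM in hypoxic HepG2 cells, and 584, 605 and 551 CPM and 504, 512 and 561 CPM in HKC-8 cells. Its difference was -0.36 ± 0.10 (adjusted p = 0.0380), and within HKC-8 cells its value did not pass (adjusted p = 0.262). HNRNPK, a protein that binds cytidine-rich tracts, differed by -0.35 ± 0.10 (adjusted p = 0.0411) and SRSF4 by -0.29 ± 0.09 (adjusted p = 0.0483). Within its line HNRNPK passed in neither HKC-8 (adjusted p = 0.0596) nor HepG2 cells (adjusted p = 0.203). CLK3 did not pass, with a difference of 0.06 ± 0.11 (adjusted p = 0.806), nor did SRSF7 at 0.14 ± 0.12 (adjusted p = 0.511).

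The 4 differences depended on scaling and on single samples. With total count scaling the median of all genes shifted by 0.10 and 0 of the 4 passed, at -0.26 for HNRNPA1, -0.24 for HNRNPK, -0.34 for HNRNPU and -0.18 for SRSF4. Leaving out any 1 of the 12 samples gave 0 to 6 members, and the count was 0 (11 to 13 at an unadjusted p under 0.05) without HKC-8 normoxic replicate 1 or 2, HKC-8 hypoxic replicate 1, HepG2 normoxic replicate 1 or 2, or HepG2 hypoxic replicate 2 or 3. It was 1 without HepG2 hypoxic replicate 1 and 2 without HKC-8 hypoxic replicate 3. The difference of SRSF4 did not pass in any of the 12 omissions, those of HNRNPA1 and HNRNPK were lost in 9 each and that of HNRNPU in 7.

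**Figure D3:**
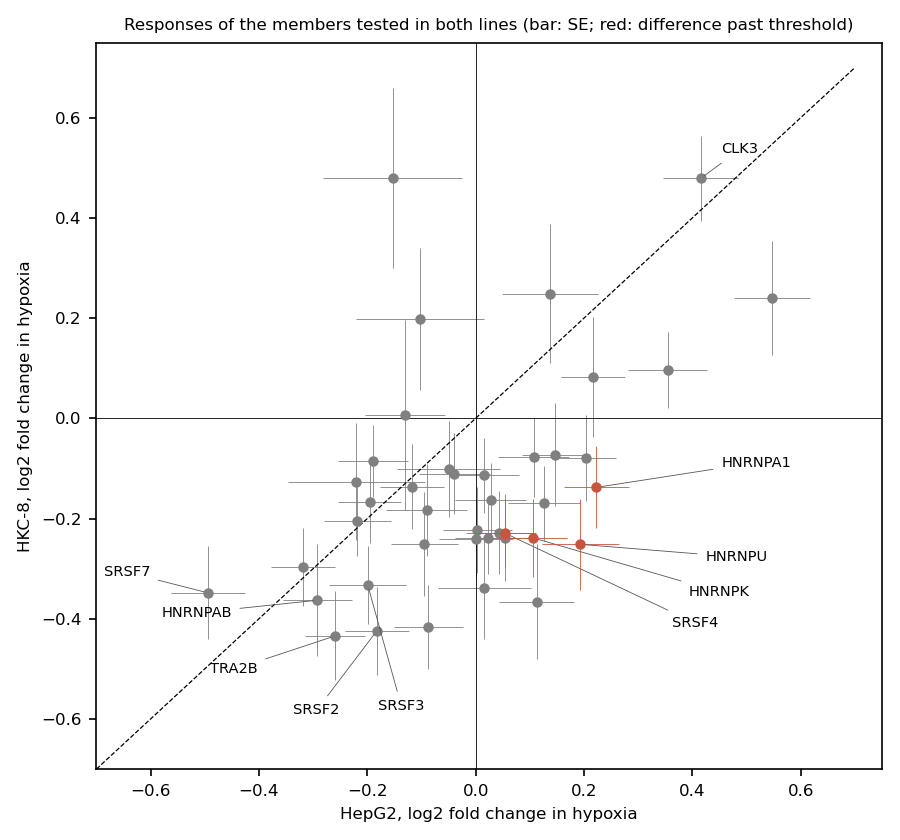
Log2 fold change in hypoxia of the 41 members tested in both lines, HepG2 on the horizontal and HKC-8 on the vertical axis, with SE bars and a dashed line of equal response. The 4 members whose difference passed the threshold, in red, lie below the line, between 0.05 and 0.22 in HepG2 and between -0.25 and -0.14 in HKC-8 cells.

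In normoxia the lines differed in most members, as they did in most of all tested genes. HKC-8 cells had the highest mean level of 34 of the 46 members with any count, RCC4 cells of 6 and HepG2 cells of 6. The same count was not made over all genes, so it does not show a trait of the members. Of 45 members tested, 32 (71.1%) were lower and 7 (15.6%) higher in RCC4 than in HKC-8 cells. Of 14806 tested genes 41.4% and 39.4% were. In HepG2 cells 33 (73.3%) were lower and 2 (4.44%) higher than in HKC-8 cells, where 40.5% and 42.6% of genes were. Between HepG2 and RCC4 cells 20 (44.4%) were higher and 11 (24.4%) lower in HepG2, against 45.3% and 38.1% of genes. Cell line and library depth cannot be told apart in the contrasts with HKC-8 cells, whose libraries were the deepest. In every normoxic contrast, cell line also cannot be told apart from any difference in how each line's samples were prepared or sequenced.

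MBNL3, a muscleblind-like protein on chromosome X, showed the largest difference. Its counts were 9, 8 and 5 in the normoxic HKC-8 samples, or 0.108, 0.0986 and 0.0550 CPM, close to the floor of 3 counts. RCC4 cells had 37.6, 36.2 and 39.8 CPM and HepG2 cells 593, 503 and 633 CPM. The log2 difference was 8.76 for RCC4 over HKC-8, 12.69 for HepG2 over HKC-8 and 3.94 for HepG2 over RCC4 cells. Per kilobase of transcript, MBNL3 made up 63.4% ± 0.863 of the MBNL total in normoxic HepG2 cells and 5.47% ± 0.383 in RCC4 cells, while MBNL1 made up 74.5% ± 3.45 in HKC-8 cells. MBNL1 ran the other way across lines, at 339 ± 29.0 CPM in HKC-8 cells, 144 ± 10.4 CPM in RCC4 cells and 80.6 ± 11.8 CPM in HepG2 cells, a log2 difference of -2.05 ± 0.10 between HepG2 and HKC-8.

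CLK1, CLK2 and CLK3 were all lowest in RCC4 cells. The HKC-8 samples had CLK1 at 51.5, 46.7 and 56.2 CPM, the RCC4 samples at 12.5, 12.6 and 13.7 CPM and the HepG2 samples at 50.1, 54.3 and 46.9 CPM, so that RCC4 was the line apart (-1.98 ± 0.09, adjusted p = 1.38e-10 against HKC-8), and HepG2 and HKC-8 cells had a difference of -0.01 ± 0.09 (adjusted p = 0.941). CLK4 was at 11.7 ± 0.619, 12.6 ± 0.986 and 12.7 ± 0.722 CPM in the 3 lines, with no contrast past the threshold. CLK4 made up 20.3% ± 1.43 of the CLK total per kilobase in RCC4 cells, compared with 6.76% ± 0.0767 in HKC-8 and 8.63% ± 0.324 in HepG2 cells.

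SRSF10, whose dephosphorylated protein represses splicing, was lower in RCC4 cells as well, at 5.33, 5.24 and 4.80 CPM, beside 28.2, 27.8 and 45.6 CPM in HKC-8 and 30.2, 27.3 and 27.1 CPM in HepG2 cells (-2.71 ± 0.18, adjusted p = 4.38e-09 for RCC4 over HKC-8). HNRNPA1 stood at 580.0 ± 27.5 CPM in HKC-8, 199 ± 12.3 CPM in HepG2 and 114 ± 2.23 CPM in RCC4 cells, each line apart from the next (-2.33 ± 0.07 for RCC4 and -1.52 ± 0.07 for HepG2 over HKC-8). HNRNPH3 (-2.14 ± 0.07) and HNRNPH1 (-1.97 ± 0.08) were likewise lower in RCC4 than in HKC-8 cells. Members higher in RCC4 than in HKC-8 cells included SRSF12 (1.33 ± 0.12), HNRNPA0 (0.53 ± 0.08), SRSF8 (0.51 ± 0.07) and SRPK2 (0.43 ± 0.08). SRSF12 (-1.26 ± 0.12), MBNL2 (-1.12 ± 0.09), SRPK2 (-1.09 ± 0.08) and HNRNPUL2 (-1.08 ± 0.08) were lower in HepG2 than in RCC4 cells. In contrast, HNRNPH1 (1.27 ± 0.08), HNRNPA3 (1.19 ± 0.07) and SRSF10 (2.47 ± 0.18) were higher in HepG2 cells.

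Per kilobase, HNRNPK was the highest member in each normoxic line, at 423 ± 20.8 CPM per kb in HKC-8 cells, 272 ± 4.07 in RCC4 cells and 301 ± 20.2 in HepG2 cells (SD, n = 3). The next member, HNRNPA2B1 at 412 ± 9.44 CPM per kb in HKC-8 and HNRNPC at 298 ± 10.9 CPM per kb in HepG2 cells, was nearer than the spread. In RCC4 cells the next was HNRNPA2B1 at 254 ± 6.57 CPM per kb, farther away than either SD. The SD covers only the spread between samples, and the order also rests on the 1 transcript length used for each gene. In CPM, without length, HNRNPA2B1 stood above HNRNPK in normoxic HKC-8 (1495 against 1222 CPM) and RCC4 cells (922 against 785 CPM). HNRNPC stood above HNRNPK in normoxic HepG2 cells (945 against 869 CPM).

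**Figure D4:**
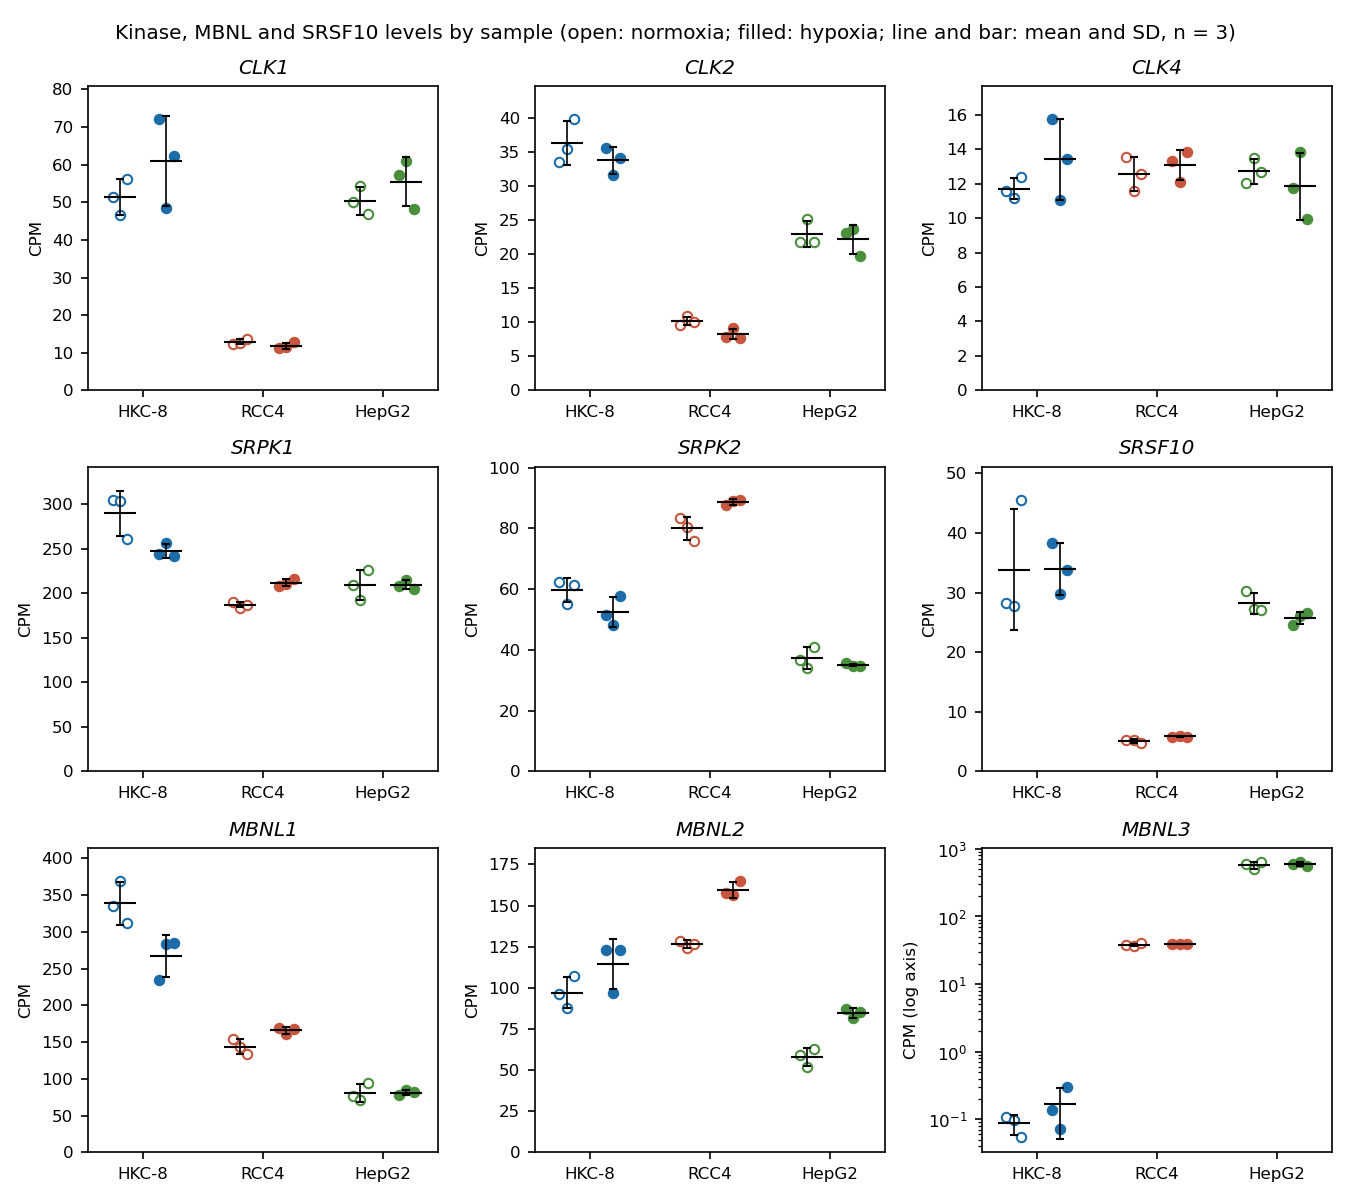
CPM (vertical axis, from 0 except for MBNL3, which has a log axis) of CLK, SRPK and MBNL genes and SRSF10 by sample, with open points for normoxia, filled points for hypoxia, and the mean and SD of 3 samples. CLK1, CLK2 and SRSF10 are lowest in RCC4 cells, and MBNL3 lies below 1 CPM in every HKC-8 sample and above 500 CPM in every HepG2 sample.

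Some members were at the edge of detection. HNRNPCL1 and HNRNPA1P10 had no count in any sample, and HNRNPKP3 had at most 1. In the hypoxia comparisons HNRNPA3P1 and SRPK3 were tested in HKC-8 cells alone and passed in neither direction. SRPK3 counts were 20, 23 and 4 in the normoxic HKC-8 samples and 4, 11 and 1 in the HepG2 ones, and 0 in all 6 RCC4 samples, so no fold is given for RCC4.

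HNRNPA1P33, a processed pseudogene of HNRNPA1 at chr10:47133338-47133898 on the minus strand, rose in RCC4 cells from 10.7, 9.87 and 10.7 CPM to 18.1, 19.2 and 18.4 CPM, the largest change of any member in any line (0.84 ± 0.07, adjusted p = 1.82e-09). Its HKC-8 value was 0.32 ± 0.16 (adjusted p = 0.175), and in HepG2 cells it had 5 to 10 counts per sample and was not tested. HNRNPA1 itself had -0.09 ± 0.04 (adjusted p = 0.0554) in RCC4 cells. The pseudogene lies, on the same strand, between the ends of the noncoding gene LINC00842 (chr10:47011753-47174018), though their annotated exons do not overlap. LINC00842 was counted separately and was also higher in hypoxic RCC4 cells (0.48 ± 0.16, adjusted p = 0.0197), with 0.63 ± 0.20 (adjusted p = 0.0576) in HKC-8 cells and 0 to 6 counts in HepG2 samples. The part of LINC00842 transcripts in the pseudogene's counts was not tested. Reads shared by HNRNPA1 or HNRNPA3 and their copies were removed when fragments that map to more than 1 place were dropped. Values of HNRNPA1, HNRNPA1L2, HNRNPA1P33, HNRNPA3 and HNRNPA3P1 are therefore uncertain. So are those of members that overlap another gene, such as HNRNPU with COX20 and HNRNPUL1 with TGFB1, because the strand setting of the counting was not given in the sources used here.

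The members can be read beside other splicing genes. Of 74 tested components of the core spliceosome, the small nuclear ribonucleoproteins and their partners, edgeR called 15 lower and 0 higher in HKC-8 cells (0 higher at an unadjusted p under 0.05 and 0 by DESeq2), where 9.12% of all tested genes were lower and 11.2% higher. The count was 29 lower and 8 higher of 74 in RCC4 cells, beside 24.2% and 25.9% of genes, and 26 lower and 8 higher of 76 in HepG2 cells, beside 19.2% and 19.9%. The medians were -0.22, -0.06 and -0.09 in that order of lines. The lowest were USP39 (-0.48 ± 0.08), CWC22 (-0.44 ± 0.09) and PRPF3 (-0.39 ± 0.08) in HKC-8 cells, SNRNP40 (-0.35 ± 0.04), SNRPA1 (-0.33 ± 0.06) and SF3A1 (-0.32 ± 0.04) in RCC4 cells, and PRPF40B (-0.55 ± 0.15), LSM2 (-0.55 ± 0.10) and SNRPG (-0.54 ± 0.10) in HepG2 cells. Those higher included PRPF8 (0.26 ± 0.03) and SLU7 (0.22 ± 0.05) in RCC4 cells, and SF3A2 (0.45 ± 0.06), SNRNP70 (0.29 ± 0.06) and PRPF6 (0.25 ± 0.06) in HepG2 cells.

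Of the other splicing regulators, 8 were lower and 2 higher of 67 tested in HKC-8, 20 lower and 16 higher of 64 in RCC4, and 8 lower and 14 higher of 66 in HepG2 cells, against the same shares of all genes. PTBP2 (-0.60 ± 0.12), FUBP1 (-0.59 ± 0.08) and SFPQ (-0.46 ± 0.10) were lowest in HKC-8 cells. CELF5 (2.79 ± 0.77, adjusted p = 0.0335) and DYRK1B (0.58 ± 0.14, adjusted p = 0.0216) were the 2 higher. CELF5 was also higher in HepG2 cells (1.29 ± 0.30, adjusted p = 0.00415). Its HKC-8 SE is the widest among the genes named in this paragraph, and its level and the omissions of single samples are not given here. RBM3, an RNA-binding protein induced by cold, was higher in RCC4 (0.64 ± 0.04) and HepG2 cells (0.46 ± 0.07), and its relative CIRBP in HepG2 cells (0.50 ± 0.06). ESRP2 (1.06 ± 0.23) and SCAF11 (0.99 ± 0.05) led in RCC4 cells, where LUC7L (-0.46 ± 0.07), SCAF1 (-0.37 ± 0.05) and SAFB (-0.29 ± 0.05) were lowest, and ZRANB2 (-0.42 ± 0.08), KHDRBS3 (-0.37 ± 0.10) and RBM6 (-0.26 ± 0.09) were lowest in HepG2 cells.

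**Figure D5:**
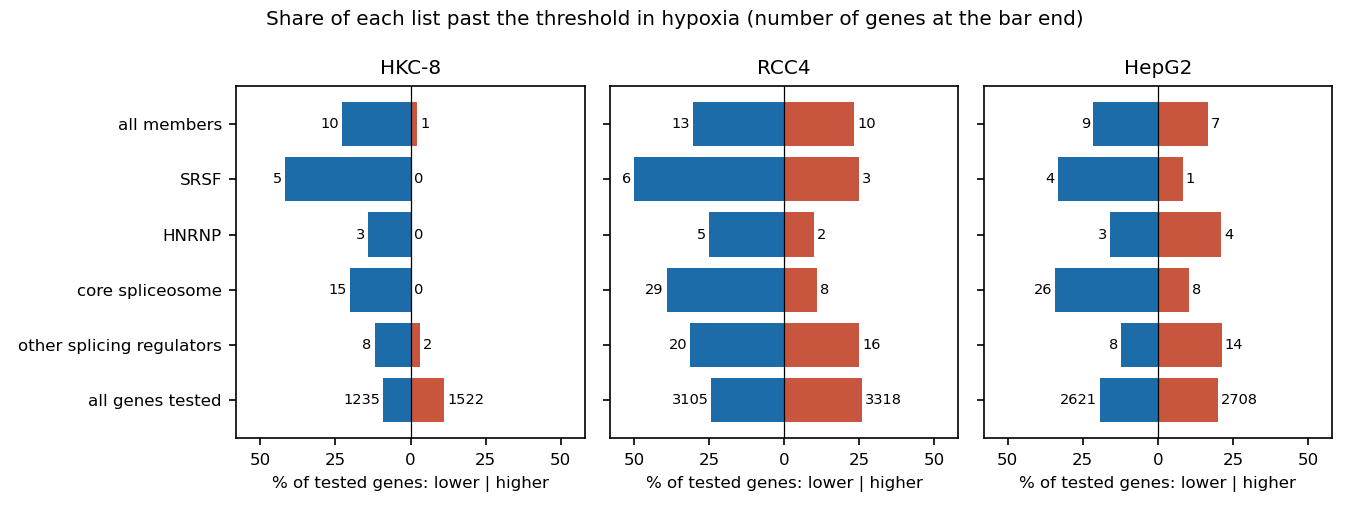
Share of each list past the threshold (horizontal axis, percent of tested genes, lower to the left and higher to the right), with the number of genes at the bar end, in the 3 cell lines. In HKC-8 cells 10 members lie to the left and 1 to the right, while all tested genes divide into 1235 lower and 1522 higher.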

How the data were processed

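The files held whole-number counts of reads per gene, 1 table per sample, for 18 samples. Per the study's methods and the submitters' processing notes, the authors trimmed adapters with Trim Galore (0.3.3), aligned reads to GRCh37 with TopHat (2.0.8b) and Bowtie (1.0.0), kept uniquely mapped fragments with SAMtools (0.1.19) and made the deposited counts with HTSeq (0.5.4p3) in intersection-strict mode on UCSC genes. Genes with near-identical copies lose reads in the unique mapping step.

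Each cell line was fitted apart with edgeR (4.0.16, R 4.3.3), using TMM scaling, the filterByExpr filter by group, the quasi-likelihood F-test (two-sided) and Benjamini-Hochberg adjustment over all genes tested, with a threshold of 0.05. The SE of a log2 fold change was its size over the square root of F. The HKC-8 and HepG2 difference was an interaction over 12 samples, and the normoxic contrasts came from 1 fit of 9. The step was run on simulated data with planted changes larger than the hypoxia response of any tested member. That run does not show how well changes of the size seen here are recovered. Printed CPM used TMM factors over the 18 samples. CPM per kb used the length of each gene's canonical transcript in GENCODE, lifted to GRCh37, which also gave the gene coordinates. Promoters came from RefSeq and were searched with Python (3.11.15).

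Total counts were 40915980 to 97984260, the biological coefficient of variation in HKC-8 cells was 0.135, in RCC4 cells 0.0437 and in HepG2 cells 0.0733, and all 18 pairs of replicates differed by more than sampling noise (chi-square per degree of freedom 4.57 to 91.5). The members and lists were chosen with earlier results of these data known. Every SRSF, CLK, SRPK, TRA2 and MBNL member could be named, as could the 8 called HNRNP members with the largest log2 fold change in each line, pseudogenes, the 5 largest normoxic differences in each direction, called interaction members and the 3 highest and 3 lowest called genes of each other list, of which 1 is not reported here. MFSD11, GATC, EDC3 and LINC00842 were named because they overlap or span a member. Further normoxic contrasts of named members were added after their values were seen. Alternatives were DESeq2 (1.42.0), median-of-ratios size factors, total count scaling, no filter, at least 10 counts in every sample, a replicate block, 1 fit of the 18 samples and leaving out each sample.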

Additional observations from a re-analysis of the deposited data

Results flagged for a closer look

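The hypoxia response differed between HKC-8 and HepG2 cells, by an interaction test, for HNRNPA1 (-0.36), HNRNPK (-0.35), HNRNPU (-0.45) and SRSF4 (-0.29), each a log2 fold change in HKC-8 minus that in HepG2 cells. Of the 12 omissions of 1 sample, the difference of SRSF4 was lost in 12, those of HNRNPA1 and HNRNPK in 9 each and that of HNRNPU in 7.

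In some members every hypoxic sample lay on one side of the normoxic samples in one line and on the opposite side in another, a difference that was not tested because the labels give RCC4 cells another oxygen level and duration. Between HKC-8 and RCC4 cells these were MBNL1, with log2 fold changes of -0.34 and 0.21, SRPK1 with -0.22 and 0.18, HNRNPK with -0.24 and 0.068, and HNRNPR with -0.24 and 0.074. Between RCC4 and HepG2 cells they were HNRNPA1 with -0.089 and 0.22, SRSF10 with 0.20 and -0.13, SRSF4 with -0.17 and 0.055, and SRSF5 with 0.062 and -0.12. Of these 16 values, only those of MBNL1 in both lines, SRPK1 and SRSF4 in RCC4 cells and HNRNPA1 in HepG2 cells passed the threshold within their line. With total count scaling HNRNPK in RCC4 cells changed sign to -0.015 and SRSF4 in HepG2 cells to -0.038. The share of all genes with such opposite moves was not counted.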

How the results depend on the processing

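Members called higher in HKC-8 cells numbered 1, but 2 with DESeq2, 5 with the replicate block, 3 in 1 fit of all 18 samples and 1 to 4 with a sample left out, and those called lower numbered 10, but 23 with the block, 22 in the fit of 18 and 0 to 15 with a sample left out. In RCC4 cells the fit of 18 gave 4 higher and 5 lower, total count scaling 22 lower, and omissions 9 to 10 higher and 10 to 14 lower. In HepG2 cells total count scaling gave 3 higher, and omissions 5 to 8 higher and 5 to 9 lower. In the fit of 18 the 3 lines share 1 estimate of the spread by construction. For the difference between HKC-8 and HepG2 cells, 4 lower members became 11 with DESeq2, 14 with the block, 0 with total count scaling and 0 to 6 with a sample left out, and 0 higher became 1 with the block and 0 to 1 with a sample left out. The cause was not tested. Shares of all genes called under each setting are not given beside these counts, so the changes are not shown to be particular to the members.

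Under total count scaling 7 log2 fold changes that were not past the threshold changed sign, to -0.077 for MBNL1, -0.041 for MBNL3 and -0.038 for SRSF4 in HepG2 cells, and to -0.019 for CLK4, -0.015 for HNRNPK, -0.0072 for HNRNPU and -0.035 for MBNL3 in RCC4 cells. With a sample left out, sign changes occurred in HepG2 cells for CLK2 (-0.10 to 0.035), CLK4 (-0.23 to 0.008), MBNL1 (-0.058 to 0.13) and MBNL3 (-0.027 to 0.12).

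The main fits did not pair samples by replicate number, and the values do not settle whether the numbers pair them. Deviations of same-numbered samples in HKC-8 cells correlated at 0.0747 to 0.373, where replicates 2 and 3 matched their own number best and replicate 1 did not. In RCC4 cells they correlated at -0.0193 to 0.0128, and only replicate 2 matched its own number best. In HepG2 cells they correlated at 0.0391 to 0.0964, and each sample matched its own number best. The block moved no count in RCC4 or HepG2 cells by more than 1.5 times, and it ended no call of a named member. Depth limits SRPK3, MBNL3 in HKC-8 cells and the pseudogenes other than HNRNPA1P33, which had few counts.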
